A study of Mus musculus with 2 samples.

Results

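The extracellular matrix genes described here are 43 genes whose products make up elastic microfibrils, small proteoglycans, adhesive glycoproteins and tendon matrix, or mark the fibroblasts that secrete them, together with the proteases and inhibitors that remodel this matrix. Collagen chains were left out of the set. All non-control probes on the arrays that carry the name of one of the 43 genes, or an older or current alias of it, were taken, which gave 68 probes, 1 of them listed for *Postn* under an older name. The genes were chosen with the ratios of these same arrays known, so the ratios below describe the genes and test nothing. Of the 43 genes, 40 were measured above background, among 13590 such genes of 27549 names on the arrays.

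Gene expression in the gastrocnemius (GAS) muscle was compared between wild-type (WT) and *Gde5* skKO mice, male and 15 weeks old, on normal diet. *Gde5* skKO mice are C57BL/6 mice that carry floxed *Gde5* (Gpcpd1) alleles and a Cre recombinase driven by the human alpha-skeletal actin promoter, HSA-Cre, which acts in skeletal muscle fibres. GDE5 is the enzyme that cleaves glycerophosphocholine. The labels call the controls wild-type, whereas the methods name *Gde5* flox/flox littermates as controls in other experiments on these mice, so it is not known whether the array controls carried the floxed alleles. Each of 2 two-colour Agilent arrays held RNA of both genotypes. Cy3 marked the WT and Cy5 the *Gde5* skKO RNA on array 1, and the dyes were swapped on array 2. The labels name neither fasting nor glucose injection. The series text speaks of 5 mice, but it is not stated how many gave each RNA or whether the arrays shared their RNA, so no test across mice was made.

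Fibroblasts and tendon cells build the matrix that surrounds muscle fibres and ties them to tendon. Fibrillin microfibrils, with their associated glycoproteins and fibulins, form a scaffold for elastin and bind latent TGF-beta. Small leucine-rich proteoglycans such as decorin and fibromodulin coat collagen fibrils and govern their diameter, and the thrombospondins, tenascins and periostin modulate adhesion between cells and matrix. Most of these genes are known to be expressed mainly outside the muscle fibres in which the HSA promoter is active.

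A ratio here is the log2 of *Gde5* skKO over WT signal at a spot, after the background subtraction and dye normalization of Agilent's Feature Extraction software, and each gene is represented by its brightest probe. A gene was called lower or higher when the software's p-value for the ratio was under 0.05 on both arrays and both ratios had the same direction. This p-value covers the spots of 1 hybridization and not the spread between mice. Of the 4 *Gde5* probes, 3 had mean ratios of -2.93, -2.97 and -3.18, and the other had ratios of -0.05 on array 1 and -0.47 on array 2. This other probe was the brightest of the 4, so under the brightest-probe rule *Gde5* itself was not called. The rule also rests on 1 probe for the 5 matrix genes with more than 1 probe above background. The position of the *Gde5* probes relative to the floxed exon was not determined here. All 17 skeletal muscle fibre genes tested were well above background in both channels of both arrays. None was called in either direction, beside 3.32% of all genes.

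Among the 40 matrix genes, 5 were called lower in *Gde5* skKO muscle (*Mfap4*, *Pi16*, *Efemp1*, *Fbln1* and *Kera*), beside 1.74% of all genes tested. Higher in *Gde5* skKO muscle was 1 gene, *Timp1*, beside 1.58% of all genes. Either way, 6 were called, beside 3.32% of all genes. The other 34 did not pass the rule. Of these, 1 gene, *Thbs2*, had ratios of opposite sign that followed the dye and not the genotype, and 1.58% of all genes did the same. A p-value under 0.05 was given to 12 matrix genes on array 1 and 11 on array 2, beside 12.2% and 13.9% of all genes, and 24 had none on either array. Limma's moderated test over all genes, run on ratios normalized anew, put 10 matrix genes lower and 4 higher at an unadjusted p-value under 0.05, beside 4.26% and 4.24% of all genes. After Benjamini-Hochberg adjustment over all genes it kept 2 lower, *Mfap4* and *Pi16*, and 0 higher, beside 0.5% and 0.272% of all genes. On channel values, the methods' t-test put 8 matrix genes lower and 2 higher unadjusted, beside 4.21% and 4.55% of all genes. Both tests take the 2 arrays as replicates, though it is not known whether these hold RNA of different mice. Their p-values therefore do not measure the spread between mice. Because the genes were chosen with these ratios known, nothing is read from their share of calls. In whole muscle, fewer cells of a type and less RNA per cell cannot be told apart.

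Over the 40 genes the mean ratios had a median of -0.10, beside 0.01 over all genes tested. It was -0.01 on array 1 and -0.17 on array 2. Both ratios lay below 0 for 16 matrix genes and above 0 for 10, and they had opposite signs for 14. Over all genes, both ratios lay below 0 for 25.3% and above 0 for 29.2%. For 19 of the 40 the mean ratio was within 0.25 of 0. The arrays were typically 0.22 apart for a matrix gene, which was also the median distance over all genes.

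**Figure D1:**
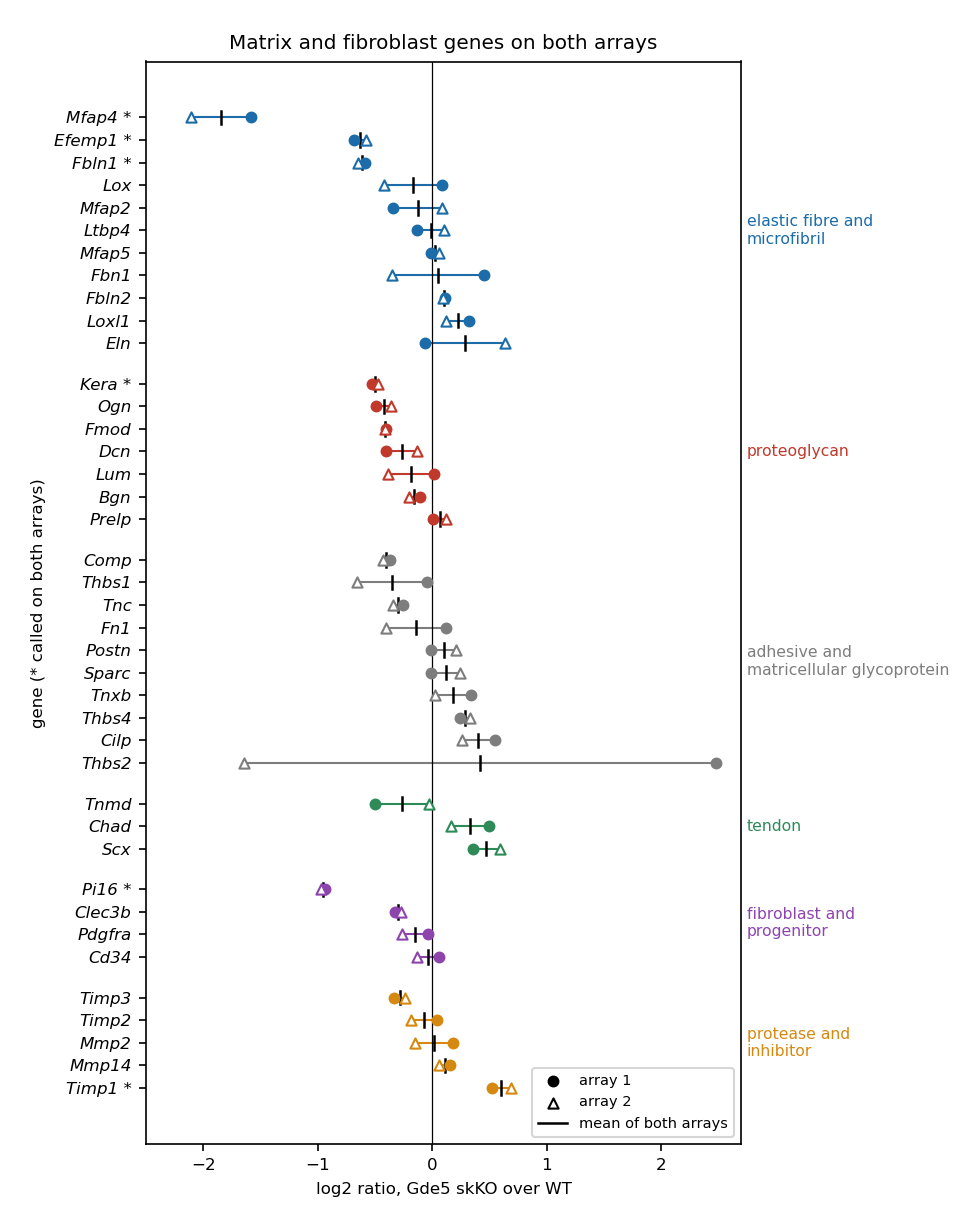
Log2 ratio of *Gde5* skKO over WT (x axis) for the 40 matrix genes above background, grouped by role and ordered by their mean. Circles are array 1, triangles array 2, ticks the mean, and an asterisk marks the 6 genes called on both arrays. *Mfap4* lies lowest, with ratios of -1.58 and -2.11, and the 2 values of *Thbs2* lie on opposite sides of 0.

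*Mfap4*, a microfibril-associated glycoprotein that binds elastin and collagen, had the lowest ratio of the set. Its processed signal, in arbitrary units, was 229 in WT and 76.7 in *Gde5* skKO muscle on array 1, and 244 and 56.7 on array 2. Both WT signals therefore lay above both *Gde5* skKO signals. For this and the other called genes, such a separation largely follows from the call rule and is no further result. The ratios were -1.58 and -2.11, with a mean of -1.84 ± 0.37 (SD, n = 2 arrays), or a 3.59-fold lower level in *Gde5* skKO muscle. With limma's normexp background model and loess normalization in place of Feature Extraction the mean was -0.72, and with loess alone, with no background correction, it was -0.77. The probe lies at chr11:61304789-61304848 of mm8.

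*Pi16*, a secreted peptidase inhibitor that marks adventitial and progenitor-like fibroblasts, had WT signals of 1178 on array 1 and 1024 on array 2. The *Gde5* skKO signals were 616 and 523, again below both WT values. The ratios were -0.94 and -0.97, a mean of -0.95 ± 0.02 (SD, n = 2 arrays) and a 1.94-fold lower level. The arrays gave nearly the same value, and limma's mean was -0.71. The probe lies at chr17:29055673-29055732 of mm8.

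*Efemp1* encodes fibulin-3, a fibulin of basement membranes and elastic tissues. Its WT signals were 781 and 704, and its *Gde5* skKO signals 487 and 471. The groups did not overlap. The ratios of -0.68 and -0.58 gave a mean of -0.63 ± 0.07 (SD, n = 2 arrays), a 1.55-fold lower level, and limma's mean was -0.44. The probe lies at chr11:28826538-28826597 of mm8.

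*Fbln1*, which encodes fibulin-1, had signals of 282 and 311 in WT and 188 and 198 in *Gde5* skKO muscle, with ratios of -0.58 and -0.65. The mean was -0.62 ± 0.05 (SD, n = 2 arrays), 1.53-fold lower, and -0.32 by limma. A dimmer probe of the gene, from 85113190 to 85113250 beside the bright one at chr15:85113334-85113393 of mm8, did not show this on both arrays. Its ratios were 0.15 on array 1 and -1.76 on array 2, where the *Gde5* skKO signal of 29.9 stood against a WT signal of 101. This signal of 29.9 was not well above background.

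*Kera* encodes keratocan, a keratan sulphate proteoglycan known from the cornea and also found in tendon. Its signals were 1210 and 1131 in WT and 842 and 816 in *Gde5* skKO muscle. The ratios of -0.52 and -0.47 gave a mean of -0.50 ± 0.04 (SD, n = 2 arrays), a 1.41-fold lower level with no overlap of the groups. By limma the mean was -0.40. The probe lies at chr10:97043284-97043343 of mm8.

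*Timp1*, an inhibitor of matrix metalloproteinases, was the gene called higher. Its WT signals were 327 and 321 and its *Gde5* skKO signals 469 and 517, and the groups did not overlap. The ratios were 0.52 and 0.69, a mean of 0.60 ± 0.12 (SD, n = 2 arrays), 1.52-fold higher, and 0.40 by limma. A second, dimmer *Timp1* probe was well above background only for *Gde5* skKO RNA on array 1 and had ratios of 0.25 and 0.14. The bright probe lies at chrX:20031508-20031566 of mm8.

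**Figure D2:**
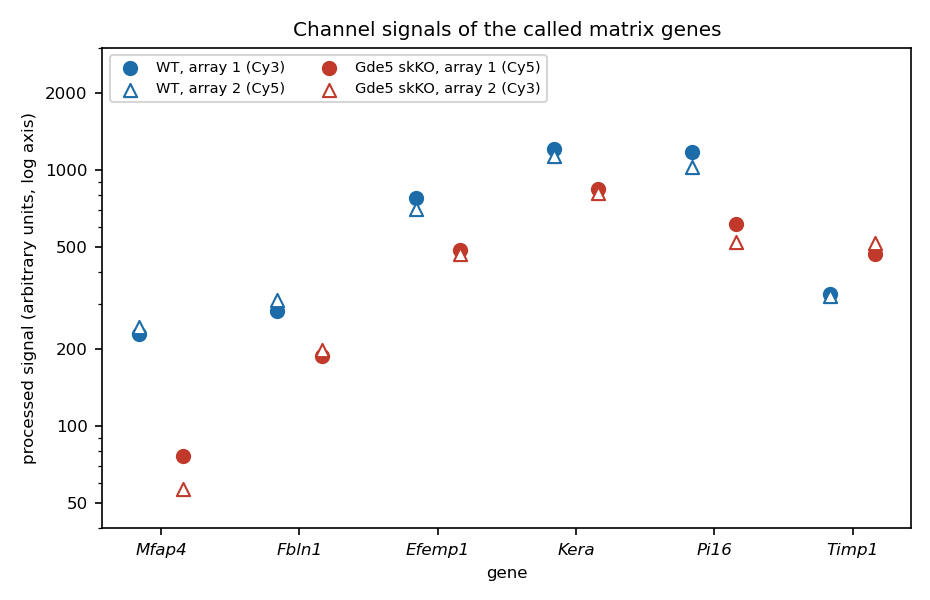
Processed signal (arbitrary units, log y axis) of the 6 called matrix genes, with WT in blue and *Gde5* skKO in red, circles for array 1 and triangles for array 2. For each gene both signals of one genotype lie beyond both of the other, from 229 and 244 against 76.7 and 56.7 for *Mfap4* to 327 and 321 against 469 and 517 for *Timp1*. The rule that called these genes largely sets this separation.

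The promoters of the called genes are shown because these are the genes with the same direction on both arrays past the threshold. RefSeq promoter sequences, with 250 bases before and 50 after the transcription start, were matched by symbol for 5 of the 6 called genes. All lie on the plus strand of GRCm38.p6 and are written 5′ to 3′, with matches to the motifs described after them in capitals. For *Fbln1*, the downstream of 2 overlapping start sites is shown (chr15:85205758-85206057). The others are *Efemp1* (chr11:28852955-28853254), *Kera* (chr10:97606955-97607254), *Pi16* (chr17:29318632-29318931) and *Timp1* (chrX:20869916-20870215).
Fbln1: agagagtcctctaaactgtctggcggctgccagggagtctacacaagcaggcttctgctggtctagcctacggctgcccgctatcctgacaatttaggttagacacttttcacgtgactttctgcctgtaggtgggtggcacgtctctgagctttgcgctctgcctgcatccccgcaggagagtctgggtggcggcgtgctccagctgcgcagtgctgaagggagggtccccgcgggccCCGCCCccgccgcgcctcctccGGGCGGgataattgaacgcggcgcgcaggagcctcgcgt
Efemp1: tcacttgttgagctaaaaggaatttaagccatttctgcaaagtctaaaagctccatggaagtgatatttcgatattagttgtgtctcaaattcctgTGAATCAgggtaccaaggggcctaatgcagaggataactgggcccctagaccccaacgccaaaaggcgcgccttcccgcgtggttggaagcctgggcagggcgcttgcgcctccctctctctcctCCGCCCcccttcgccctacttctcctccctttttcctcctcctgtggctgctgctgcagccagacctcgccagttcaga
Kera: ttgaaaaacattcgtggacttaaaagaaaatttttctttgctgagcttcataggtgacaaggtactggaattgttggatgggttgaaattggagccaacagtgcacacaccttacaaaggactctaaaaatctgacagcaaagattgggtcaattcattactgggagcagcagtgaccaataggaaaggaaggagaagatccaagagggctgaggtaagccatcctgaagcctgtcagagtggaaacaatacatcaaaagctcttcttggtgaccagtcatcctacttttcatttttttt
Pi16: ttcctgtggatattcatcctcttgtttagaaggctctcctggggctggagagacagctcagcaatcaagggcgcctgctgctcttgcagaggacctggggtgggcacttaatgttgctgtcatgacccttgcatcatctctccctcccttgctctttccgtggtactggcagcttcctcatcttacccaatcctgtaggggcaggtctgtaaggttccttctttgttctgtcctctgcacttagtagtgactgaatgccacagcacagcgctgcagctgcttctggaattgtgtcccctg
Timp1: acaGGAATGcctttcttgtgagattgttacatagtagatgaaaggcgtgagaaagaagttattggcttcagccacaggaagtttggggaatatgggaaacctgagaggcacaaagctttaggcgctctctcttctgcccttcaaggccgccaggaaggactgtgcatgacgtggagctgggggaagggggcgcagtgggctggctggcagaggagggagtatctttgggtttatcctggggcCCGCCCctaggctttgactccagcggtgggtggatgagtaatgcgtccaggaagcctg
The motifs were searched on both strands, and chosen with the ratios known. They were the TATA box TATAAA, the GC box GGGCGG, a loose AP-1 pattern TGANTCA (N any base) and the muscle MCAT element CATTCC. They occur in 13.6%, 35.7%, 7.81% and 14.7% of 32851 RefSeq promoters of this length. *Fbln1* holds a GC box on each strand, and *Timp1* a GC box and an MCAT element, in each case as letters only. *Efemp1* holds a GC box and TGAATCA, a match to the loose AP-1 pattern, also as letters only. The windows of *Kera* and *Pi16* hold none of these letters, nor does the upstream *Fbln1* window.

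**Figure D3:**
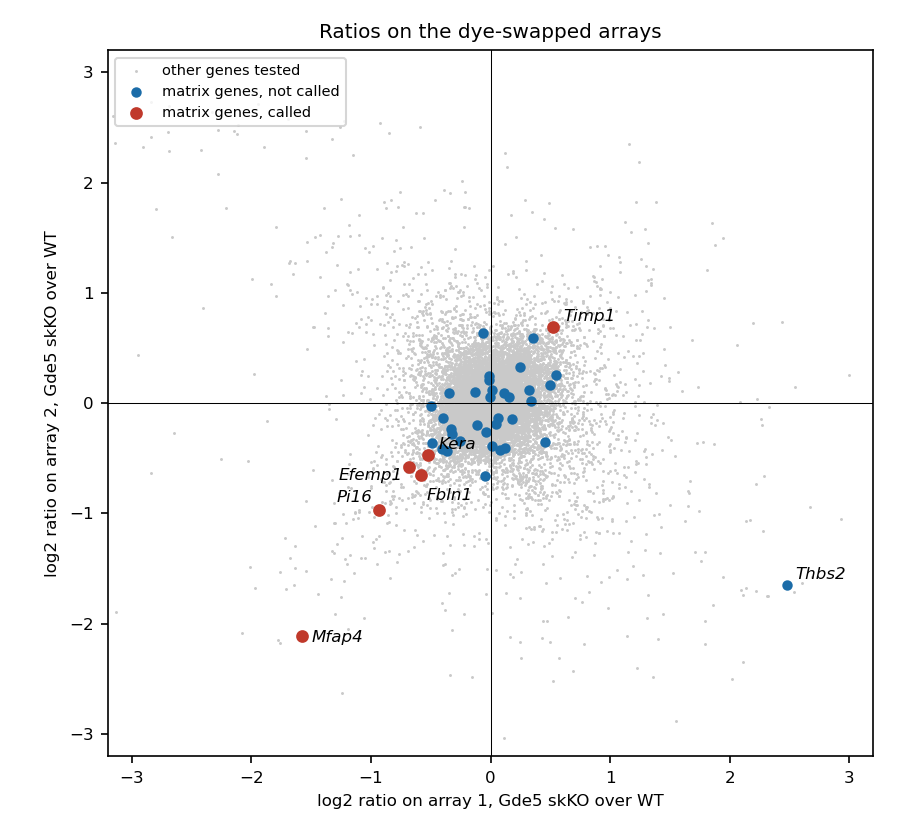
Log2 ratio of *Gde5* skKO over WT on array 1 (x axis) against array 2 (y axis), with the 6 called matrix genes in red, the 34 others above background in blue and all other genes in grey, 5 of which lie outside the axes. Called genes lie in the lower left, where both ratios are below 0, except *Timp1* in the upper right, and *Thbs2* lies in the lower right at 2.48 and -1.65.

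Of the 13 elastic fibre and microfibril genes, 11 were above background and 3 were called lower, the *Mfap4*, *Efemp1* and *Fbln1* just described. Of all genes, 1.74% were called lower. None of the 11 was called higher, beside 1.58% of all genes. The genes were chosen with these ratios known, so nothing is read from the counts by role. Their mean ratios ran from -1.84 to 0.29, with a median of -0.01. Thus the 3 lower genes stood beside 8 that did not pass. *Fbn1*, which encodes the fibrillin that forms the microfibril core, had ratios of 0.45 and -0.35. A dimmer *Fbn1* probe gave -0.70 and 1.61, opposite in sign to the bright probe on each array. Its signals were 47.1 and 24.8 in WT and 29.0 and 75.8 in *Gde5* skKO muscle. The WT signal of 24.8 on array 2 was not well above background, so little can be read from this probe. *Eln*, which encodes elastin itself, had ratios of -0.06 and 0.64. For both genes the arrays gave ratios of opposite sign, each past the threshold on 1 array alone.

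Other microfibril genes kept near 0. *Mfap2*, a fibrillin-binding glycoprotein, had ratios of -0.34 and 0.09. *Mfap5*, its close relative, had ratios of -0.01 and 0.06, and *Fbln2*, another fibulin, of 0.11 and 0.09. Of the microfibril-associated glycoproteins measured, *Mfap4* was thus the 1 that was called. *Ltbp4*, which tethers latent TGF-beta to microfibrils, had ratios of -0.13 and 0.10. The enzymes that crosslink elastin and collagen also gave no call. *Lox* had ratios of 0.08 and -0.42, and *Loxl1* of 0.32 and 0.12. *Fbn2* and *Fbln5* were not well above background on both arrays.

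Of the 8 proteoglycan genes, 7 were above background, and 1, *Kera*, was called lower, beside 1.74% of all genes. The median of the mean ratios was -0.27, and 5 of the 7 had both Feature Extraction ratios below 0. *Fmod*, which encodes fibromodulin, came close to a call. Its signals were 1725 and 1569 in WT and 1303 and 1176 in *Gde5* skKO muscle. The ratios were -0.40 and -0.42, and the software's p-values within each array were 0.051 and 0.046, on either side of the threshold. *Ogn*, which encodes osteoglycin, had ratios of -0.49 and -0.36, with p-values within each array of 0.019 and 0.083. For both genes the *Gde5* skKO signals lay below the WT signals on each array, but neither passed the rule.

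Decorin, the product of *Dcn* and a regulator of collagen fibrils, had signals of 47368 and 36664 in WT and 35910 and 33467 in *Gde5* skKO muscle. The ratios were -0.40 and -0.13, but by limma they were -0.75 and 0.21, of opposite sign. *Lum* (lumican) had ratios of 0.01 and -0.39, and *Bgn* (biglycan) of -0.11 and -0.20. By limma *Lum* had -0.01 and -0.31, and *Bgn* -0.09 and 0.04. None of these passed on either array. *Prelp*, whose product anchors basement membranes to connective tissue, had ratios of 0.01 and 0.12, and its mean of 0.07 turned to -0.14 by limma. *Vcan*, the gene of the large proteoglycan versican, was not well above background with any of its 5 probes.

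Several of these proteoglycan genes are neighbours, and the groups below were formed after their values were seen. On chromosome 10, *Dcn*, *Lum* and *Kera* lie within 96.1 kb of each other by the mm8 positions of their probes, and their mean ratios were -0.27, -0.19 and -0.50. By limma the arrays gave *Dcn* ratios of opposite sign. On chromosome 1, *Prelp* and *Fmod* lie within 137 kb, with mean ratios of 0.07 and -0.41. The *Prelp* mean turned to -0.14 by limma, so the direction of that gene beside *Fmod* was not settled. *Ogn* lies on chromosome 13, and its mean ratio was -0.43.

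All 10 adhesive and matricellular glycoprotein genes were above background, and none was called, beside 3.32% of all genes. Their median was 0.11, though it was -0.16 on array 2 alone. *Comp*, the cartilage oligomeric matrix protein of tendon and cartilage, had ratios of -0.37 and -0.43, with p-values within each array of 0.080 and 0.042. *Cilp*, a cartilage protein also made by fibroblasts, had ratios of 0.55 and 0.26, and passed on array 1 alone. *Thbs4*, a thrombospondin of tendon and muscle junctions, had ratios of 0.25 and 0.33. Its other probe gave -0.03 and 0.10, so the 2 probes differed in size. These genes had small values in both directions.

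*Thbs2* stood apart because its ratio followed the dye. On array 1 the WT signal (Cy3) was 14.2 and the *Gde5* skKO signal (Cy5) 79.4, a ratio of 2.48. On array 2 the *Gde5* skKO signal (Cy3) was 31.4 and the WT signal (Cy5) 98.5, a ratio of -1.65. The Cy3 channel was the dim one on both arrays, whichever genotype it carried, and it was not well above background on either. It was the 1 matrix gene of the 40 that was not well above background in every channel. By limma the mean ratio was 0.04. No direction can be given for this gene.

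Matrix glycoproteins with broader roles had ratios on either side of 0. *Fn1*, which encodes fibronectin, had ratios of 0.12 and -0.40 over a probe that the arrays repeat, and the single spots ran from -0.12 to 0.35 on array 1 and from -0.70 to -0.06 on array 2. Single spots of the 2 arrays thus overlapped only from -0.12 to -0.06. These are ranges of single spots and not the spread of their mean. *Sparc*, a collagen-binding matricellular protein, had ratios of -0.01 and 0.25, and its other probe -0.13 and -0.09. *Postn* (periostin) had ratios of -0.01 and 0.21. *Tnc* (tenascin-C) had ratios of -0.26 and -0.34, *Tnxb* (tenascin-X) of 0.34 and 0.02, and *Thbs1* (thrombospondin-1) of -0.04 and -0.66. None of them passed on either array.

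The 3 tendon genes were all above background, and none was called, beside 3.32% of all genes. *Scx* encodes scleraxis, the transcription factor of tendon cells. Its signals were 998 and 966 in WT and 1280 and 1455 in *Gde5* skKO muscle, so both *Gde5* skKO values were the higher. The ratios were 0.36 and 0.59, with p-values within each array of 0.084 and 0.005, and limma's mean was 0.42. *Chad* (chondroadherin), a cartilage and tendon matrix protein, had ratios of 0.50 and 0.17, and its mean of 0.33 shrank to 0.05 by limma. *Tnmd* (tenomodulin), a membrane protein of mature tendon cells, had ratios of -0.50 and -0.03. The tendon genes therefore did not share a direction.

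Of the 4 fibroblast and progenitor genes, *Pi16* alone was called, beside 3.32% of all genes called in either direction. *Pdgfra*, the receptor that marks fibro-adipogenic progenitors of muscle, had ratios of -0.04 and -0.27, each the mean of its repeated spots. *Cd34*, a surface protein of progenitors and endothelium, had ratios of 0.06 and -0.13. *Clec3b*, which encodes tetranectin, had ratios of -0.32 and -0.28. The mean ratio was thus -0.95 for *Pi16*, -0.30 for *Clec3b*, -0.15 for *Pdgfra* and -0.04 for *Cd34*.

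Of the 5 protease and inhibitor genes, *Timp1* alone was called, beside 3.32% of all genes called in either direction. *Timp2* had ratios of 0.04 and -0.19, and *Timp3*, the inhibitor that stays bound to matrix, of -0.33 and -0.23. The inhibitors thus differed in direction, with *Timp1* at a mean of 0.60 and *Timp3* at -0.28. The gelatinase gene *Mmp2* had ratios of 0.18 and -0.15. *Mmp14*, a membrane-bound activator of the *Mmp2* product, had ratios of 0.16 and 0.06. The median of the 5 was 0.02.

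Background correction and dye normalization were changed together in limma. With normexp and loess, the limma mean kept the sign of the Feature Extraction mean for 37 of the 40 genes and for all 6 called genes. *Mfap5*, *Ltbp4* and *Prelp* changed sign. *Mfap4* moved most, from -1.84 to -0.72, beside *Pi16* at -0.71.

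**Figure D4:**
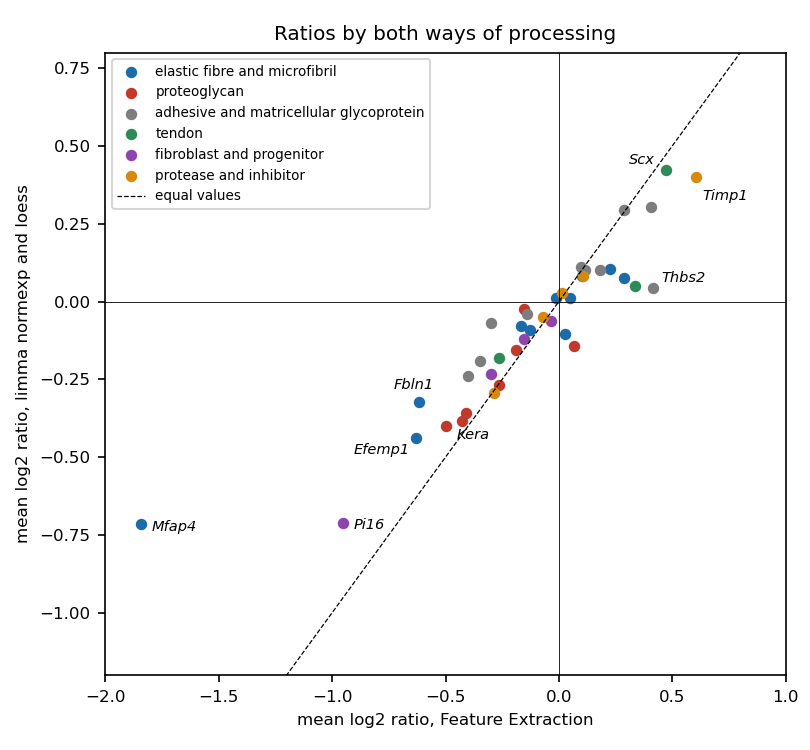
Mean log2 ratio of *Gde5* skKO over WT by Feature Extraction (x axis) and by limma's normexp and loess (y axis) for the 40 matrix genes, coloured by role, with a dashed line of equal values. Called genes lie nearer to 0 by limma, as for *Mfap4* at -1.84 and -0.72 and *Timp1* at 0.60 and 0.40.

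The other genes of these pathways came from lists of 90 elastic fibre, TGF-beta, proteoglycan, tendon and protease genes, which were written with earlier results of these arrays known. Of the 69 above background, 4 were called lower and none higher, beside 1.74% and 1.58% of all genes. Their median ratio was -0.09. *Plau*, which encodes the plasminogen activator urokinase, had ratios of -1.19 and -2.05. *Tgfbi*, a TGF-beta-induced adhesive protein, had ratios of -0.87 and -0.51, and *Ccn2*, connective tissue growth factor, of -0.44 and -0.68. *Egr2*, a transcription factor of the tendon list, had ratios of -0.43 and -0.43. Of 19 other fibroblast genes above background, 2 were called lower, beside the same 1.74% of all genes. *Dkk3*, a secreted glycoprotein, had ratios of -1.76 and -2.17, and *Igfbp5*, an insulin-like growth factor binding protein, of -0.48 and -0.65. Of the 39 collagen chain genes, 31 were above background. None was called in either direction by the rule, beside 3.32% of all genes, and the median was 0.04. By limma, 2 were higher and none lower at an unadjusted p-value under 0.05, beside 4.24% and 4.26% of all genes.

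Markers of other tissues that a dissected muscle can hold were counted in the same way. Of the 20 adipocyte markers, 18 were above background, 6 were called lower and 2 higher, beside 1.74% and 1.58% of all genes. *Adipoq* (adiponectin) had ratios of -0.97 and -1.03, *Cfd* (adipsin) of -0.89 and -0.91, and *Rbp4*, a retinol carrier, a mean ratio of -0.88. *Car3*, a carbonic anhydrase that muscle also makes, had ratios of 1.00 and 0.87. The summed signal of the adipocyte markers in *Gde5* skKO muscle was 125% of WT on array 1 and 115% on array 2, a sum that holds the bright *Car3*. *Lep* and *Adrb3* were not well above background. Of the 16 liver transcripts, 10 were above background, 4 were called lower and 1 higher, beside the same shares of all genes. Their summed signal was 60.1% of WT on array 1 and 62.9% on array 2, a sum that holds the bright *Mup1*. *Mup1* had signals of 2031 and 2008 in WT and 1021 and 1042 in *Gde5* skKO muscle. The liver transcript called higher, *Apoh*, had ratios of 0.80 and 0.81. *Apoa1*, *Apoa2*, *Apob*, *Serpina1a* and *Fga* were not well above background. Their part in the ratios of the matrix genes was not tested.

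Of 6 cartilage and bone markers above background, 1, *Bglap* (osteocalcin), was called lower, beside 1.74% of all genes. Its *Gde5* skKO signal was not well above background on either array. None was called among the endothelial (12 above background), pericyte and smooth muscle (10), macrophage and leukocyte (10), satellite cell (7), Schwann cell (6) and erythroid (4) markers. Of all genes, 3.32% were called in either direction. By limma at an unadjusted p-value under 0.05, 3 endothelial markers were higher and 1 lower, beside 4.24% and 4.26% of all genes. In the same test 1 pericyte and smooth muscle marker was higher and 1 Schwann cell marker lower. Of the 17 skeletal muscle fibre genes, 3 were higher and 1 lower.

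**Figure D5:**
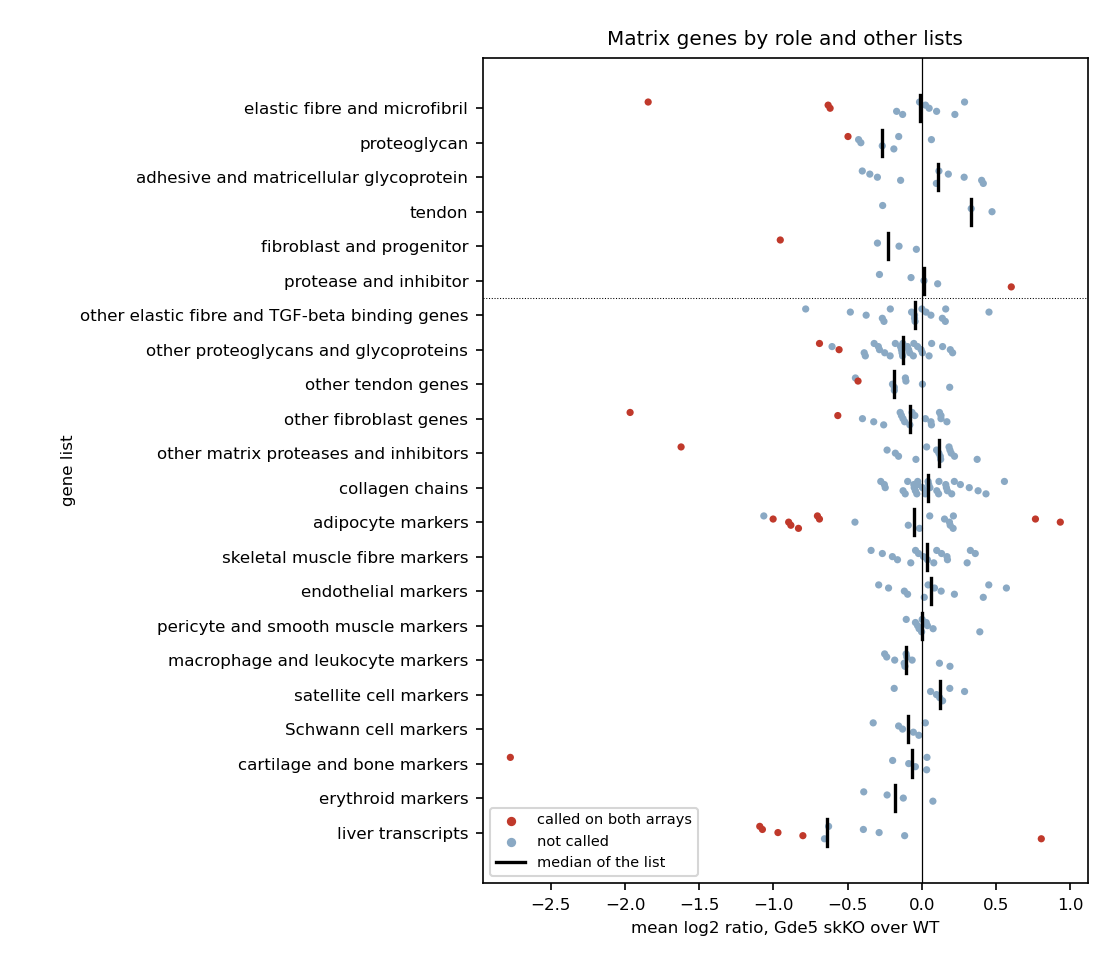
Mean log2 ratio of *Gde5* skKO over WT (x axis) of each gene above background, by list (y axis), with the matrix genes by role above the dotted line and other lists under it. Red points were called on both arrays and black ticks are medians. Proteoglycans have a median of -0.27 and collagen chains of 0.04, and the liver transcripts have the lowest median, -0.64.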

How the data were processed

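Expression in GAS muscle was measured for both genotypes on 2 dye-swapped arrays. The matrix genes and all lists were chosen with earlier results of these data known. Any of the 43 genes could be named, and of other lists the called genes, at most 4 a list by the size of their ratio.

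Scans were read by the authors in Feature Extraction (9.5.3.1 in the headers, 9.5 per the labels). For every spot the deposited files hold the log10 of Cy5 over Cy3, background-subtracted and dye-normalized. The deposited files also give a p-value from the software's error model, and the intensity of each spot and its local background. The same log10 values stand in the deposited series table.

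Here ratios were turned to log2 of *Gde5* skKO over WT by the dyes in the labels. Control spots were left out, and so were, of 43379 spots, 195 on array 1 and 221 on array 2 with an outlier mark on the spot or its local background. Among these, 39 and 21 had the local background marked. Saturated spots were kept. Spots well above background made up 53.2% (*Gde5* skKO) and 45.6% (WT) on array 1, and 44.6% and 47.4% on array 2. Precision is limited by there being 2 arrays. Ratios of repeated spots were averaged, and their mean spot error gave the p-value. A gene is its brightest probe among those that on each array were well above background in 1 channel or more. Gene names came from a RefSeq table, through the accession for 24437 of 41069 probes, the symbol for 6226 and a synonym for 2385, and 8058 kept the array's name. Probe coordinates are those of the array annotation (mm8).

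The alternatives tried were limma 3.58.1 under R 4.3.3 (normexp, offset 50, then loess), loess alone, the series table, other thresholds and filters, all probes, the moderated test of limma, the methods' t-test, and 1 array at a time. The call rule and limma's moderated test, and no other step, were tried on simulated data. Steps outside R ran in Python 3.11.15 with scipy 1.17.1, pandas 2.3.3, numpy 2.4.6 and matplotlib 3.10.9.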

Additional observations from a re-analysis of the deposited data

How the results depend on the processing

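The count of 5 matrix genes lower and 1 higher stayed the same with either other filter on dim probes. It also stayed the same with the ratios of limma's normexp and loess, of loess with no background correction and of the series table. The series table holds the Feature Extraction ratios themselves. All these ratios were used with the Feature Extraction p-values, so the count could change only where a ratio changed sign. With the mean over all probes it was 4 lower and 1 higher. At a p-value under 0.01 on both arrays it was 4 lower and 0 higher. With p-values adjusted by Benjamini-Hochberg within each array it was 2 lower, 0 higher and 0 in the dye direction, and where the mean log2 ratio also had to reach 1 in size it was 1 lower and 0 higher. The share of all genes at these stricter thresholds was not counted, so nothing is read from these counts. Limma's moderated test gave 10 lower and 4 higher at an unadjusted p-value under 0.05, beside 4.26% and 4.24% of all genes, and 2 lower (*Mfap4* and *Pi16*) and 0 higher after adjustment over all genes. The methods' t-test, which takes the channel values of each genotype as unpaired, gave 8 lower and 2 higher unadjusted, beside 4.21% and 4.55% of all genes, and 0 and 0 adjusted. The p-values of limma and of the t-test rest on 2 arrays that are not known to be different mice. With 1 array alone, 7 to 8 genes were lower and 3 to 5 higher. Beside them, 12.2% of all genes on array 1 and 13.9% on array 2 passed in either direction. Under the filter on both channels, 0 genes were in the dye direction, since *Thbs2* is left out. Proteoglycans had a median of -0.23 with no filter and of -0.40 to -0.36 on 1 array alone. Adhesive glycoproteins had one of -0.158 on array 2 alone and 0.0534 on array 1 alone. Tendon genes had one of 0.0495 with limma's normexp and loess, 0.0707 with no background correction and 0.17 to 0.36 on 1 array alone. The cause of these shifts was not tested. Each ratio sets both genotypes side by side within an array, so the counts from ratios, limma's included, are paired by array, and the t-test is the unpaired fit. Both arrays lie on 1 slide, so a block for the slide could not be fitted. *Mfap4* and *Thbs2* are dim in the channels that set their ratios, and their means moved from -1.84 to -0.72 and from 0.42 to 0.04 with limma's normexp and loess, which change the background correction and the dye normalization together. With loess alone they were -0.77 and 0.04.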
